A study of Mus musculus with 6 samples.

Results

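The nuclear-encoded oxidative phosphorylation genes were examined in mouse brainstem as 82 genes, out of 18058 genes with a deposited value and 16762 with a mean of at least 0.1 CPM (read counts scaled to the size of each library). They were chosen by gene symbol: Nduf genes of the a, b, c, s and v series followed by a number, Sdha to Sdhd, and every symbol starting with Uqcr, Cox4 to Cox8 or Atp5, leaving out the Ndufaf assembly factors. The rule used no measured value other than the level of 0.1 CPM, which all 82 genes passed. It was chosen with earlier results of these data known. Of these genes, 37 carry a complex I name, 4 belong to complex II, 8 to complex III, 17 to complex IV and 16 carry a complex V name.

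RNA was sequenced from the snap-frozen whole brainstems of naive mice aged 1 month, 3 of them WT (C57BL/6J) and 3 labelled Rag1-/- (B6.129S7-Rag1 tm1Mom/J), each library from a separate animal. The Rag1 protein takes part in V(D)J recombination, without which neither T nor B lymphocytes mature. The study compared the genotypes in the search for factors in the T cell-deficient brain that bear on the formation of low-grade glioma. All 6 libraries carry the same sequencing run and lane in the labels, and the Rag1-/- strain came from a commercial supplier.

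Oxidative phosphorylation is carried out in the inner mitochondrial membrane. Complexes I (NADH dehydrogenase) and II (succinate dehydrogenase) pass electrons to ubiquinone, complex III (the cytochrome bc1 complex) passes them to cytochrome c, and complex IV (cytochrome c oxidase) passes them to oxygen. Complexes I, III and IV pump protons, and complex V (ATP synthase) uses the resulting gradient to make ATP, on which neurons depend heavily for ion pumping. Except for complex II, each complex joins subunits encoded in mitochondrial DNA, which are not analysed here, to subunits encoded in the nucleus. Many of the nuclear-encoded subunits are small accessory (supernumerary) proteins that surround the catalytic core and serve in its assembly, stability or regulation.

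Each library held an estimated 31600000 to 46400000 reads, and a gene at the median level of the 82 had about 3607 to 5463 reads, for a counting error of 1.35 to 1.67%. Rag1 itself was at 0.246 ± 0.137 CPM (SD, n = 3) in WT and at 3.18 ± 0.750 CPM in libraries labelled Rag1-/-, so that the transcript was higher where the gene is disrupted (adjusted p = 0.0120, limma-trend). The measurement does not check the labels, and every direction given rests on them. Xist was at 172, 177 and 2.93 CPM in WT and at 0.462 to 0.738 CPM in libraries labelled Rag1-/-, so the sexes were not balanced between the groups. Neuron markers summed to 8975 to 9664 CPM in WT and to 8883 to 9647 CPM in libraries labelled Rag1-/-. The brainstem marker list summed to 97.9, 142 and 66.7 CPM in WT and to 178, 57.6 and 116 CPM in the other group, so that Rag1-/- replicate 1 was the highest and replicate 2 the lowest. The forebrain list summed to between 5.58 and 10.6 CPM. In whole tissue, a change in the share of a cell type and a change of RNA per cell cannot be told apart.

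Several subunits on which the comparison turns had entries among the RefSeq promoters (GRCm38.p6), and the 120 bases before their annotated starts are shown, 5′ to 3′ on the strand of the gene. Uqcr10, Ndufb4, Ndufa7 and Uqcr11 had the 4 smallest p-values among the 82 genes. Ndufa11, chosen after its promoter was searched, is shown as an example of a member with a palindromic NRF-1 core. The windows lie at chr11:4704345-4704464 (minus strand) for Uqcr10, chr16:37654369-37654488 (minus) for Ndufb4, chr17:33824452-33824571 (plus) for Ndufa7, chr10:80406822-80406941 (minus) for Uqcr11 and chr17:56717642-56717761 (plus) for Ndufa11. Capitals mark matches to the NRF-1 core GCATGCGC or the ETS (NRF-2) core CCGGAAG on either strand.
Uqcr10: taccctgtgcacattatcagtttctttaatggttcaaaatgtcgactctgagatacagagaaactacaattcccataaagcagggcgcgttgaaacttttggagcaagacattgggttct
Ndufb4: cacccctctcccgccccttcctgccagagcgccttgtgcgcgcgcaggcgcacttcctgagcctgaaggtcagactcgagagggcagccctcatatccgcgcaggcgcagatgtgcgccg
Ndufa7: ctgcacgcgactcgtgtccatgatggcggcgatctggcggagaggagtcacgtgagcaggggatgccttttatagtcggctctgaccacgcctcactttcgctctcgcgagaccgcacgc
Uqcr11: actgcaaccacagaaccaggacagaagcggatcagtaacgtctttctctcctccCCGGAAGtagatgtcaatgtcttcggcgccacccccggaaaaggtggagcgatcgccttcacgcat
Ndufa11: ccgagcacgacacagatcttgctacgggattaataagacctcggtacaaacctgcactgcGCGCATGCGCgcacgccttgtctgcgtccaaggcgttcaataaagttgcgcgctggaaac
NRF-1 and NRF-2 (GABP) are transcription factors long known to act on respiratory chain genes, and YY1 is another. Of the 82 genes, 68 had a RefSeq promoter of 300 bases (250 before to 50 after the start). The NRF-1 core was found in 10 of the 68 (14.7%) and in 5.18% of the 13109 tested genes with a promoter. The ETS core was found in 16 (23.5%) against 16.8%, and the YY1 core AAGATGGC in 10 (14.7%) against 4.44%. At least 1 of the 3 motifs, each searched on both strands, stood in 30 of the 68 promoters (44.1%) and in 24.0% of all. Uqcr10, Ndufb4 and Ndufa7 held none of these letters in the windows shown. Uqcr11 held the ETS core in the window shown and the NRF-1 core elsewhere in its 300 bases. A match of letters is a description and not a binding site.

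The 82 genes spanned a wide range of levels in brainstem. At least 10 CPM was reached by 74 of them, with means from 34.7 to 1169 CPM, and the other 8 were tissue isoforms or related genes under 10 CPM. Together the 82 genes held 1.53 to 1.57% of the deposited CPM in WT and 1.58 to 1.71% in libraries labelled Rag1-/-. Compared per kilobase of transcript, the highest means over the 6 libraries were those of Cox8a at 780 CPM per kb, Cox6a1 at 753, Cox4i1 at 704 and Atp5b at 610. Within complex I, Ndufa4 (388 CPM per kb) and Ndufa3 (290) were highest. In complex III, Uqcr10 (300.5) and Uqcr11 (280) led, and in complex II Sdha (152) and Sdhb (97.2). Ndufa4 is named for complex I but is now placed with complex IV.

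No gene of the 82 passed the adjusted threshold between the groups, and most had fitted values slightly above WT in libraries labelled Rag1-/-. Of the 82 genes, 0 had an adjusted p under 0.05 by limma-trend (Benjamini-Hochberg over all 16762 genes), where 0.0477% of all genes did. The adjusted p-values ran from 0.334 to 0.994. At an unadjusted p of at most 0.05, 11 of the 82 were higher, against 2.27% of all genes, and 0 were lower, against 9.29%. The 11 genes were higher by 8.49 to 14.3% of the WT mean, or 0.12 to 0.19 on the log2(CPM + 0.1) scale. All 3 libraries labelled Rag1-/- lay above all 3 WT libraries for 20 of the 82 genes, against 3.98% of all genes, and below them for 0, against 14.4%. For the other 62 genes the groups overlapped. These shares of all genes (2.27% higher and 9.29% lower at that p, 3.98% and 14.4% without overlap, 32.3% above 0) are the background for each count by complex, role and list that follows.

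The direction was shared more widely than these counts show. The log2 fold change was above 0 for 68 of the 82 genes (82.9%), against 32.3% of all genes tested. Its median was 0.065 over the 82 genes and -0.051 over all genes, which include genes down to a mean of 0.1 CPM. Over all genes, the log2 fold change was correlated with mean CPM at a Spearman rho of 0.14, and over the 82 genes at 0.024. The part of expression level in the difference from all genes was not tested. For 72 of the 82, the 95% interval of the log2 fold change lay within -0.3 and 0.3. Among the genes at 10 CPM or more, the bounds of these intervals reached from -0.15 to 0.32.

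These counts depended on scaling and on single libraries. When CPM values were rescaled by median of ratios, 32 of the 82 genes were higher at p of at most 0.05 (5.05% of all genes higher, 4.13% lower), and the median over all genes moved to -0.0062 and that over the 82 to 0.11. Quantile normalization gave 28 genes (5.10% of all genes higher). Without Rag1-/- replicate 1 the count was 2, where 1.45% of all genes were higher, a share of the members near the background. It was 5 without WT replicate 1 (1.70% of all genes) and 18 without Rag1-/- replicate 3 (2.29%). The median log2 fold change over the 82 genes was 0.026 without Rag1-/- replicate 1, with 53 above 0. Without that library the medians were below those with all libraries in complexes I (0.023), III (0.063), IV (0.049) and V (0.021). With a term for the WT libraries whose Xist exceeded 100 CPM, the median was 0.077 and 75 of the 82 genes were above 0.

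**Figure D1:**
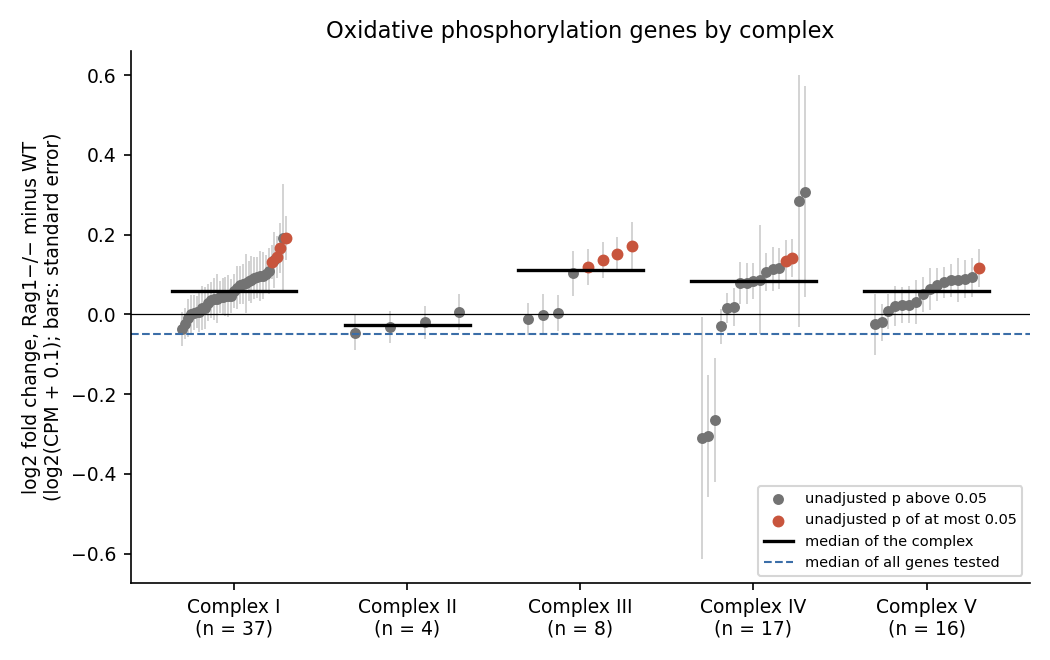
Log2 fold change (labelled Rag1-/- minus WT, log2(CPM + 0.1)) of each of the 82 genes as a point with its standard error, by complex, in red where the unadjusted p is at most 0.05, with black lines at the median of each complex and a dashed line at the median of all genes tested. Complex III has the highest median (0.11) and complex II the lowest (-0.026).

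Within complex III, small and core subunits lay apart. Its 5 small supernumerary subunits had log2 fold changes of 0.10 to 0.17, and 4 of the 5 had a p of at most 0.05 and did not overlap between the groups. Its 3 core members, by contrast, lay between -0.012 and 0.0042. They were the core protein genes Uqcrc1 and Uqcrc2 and the Rieske iron-sulfur protein gene Uqcrfs1, named after their values were seen. Core thus covers proteins of that name and not only catalytic subunits, and Cyc1 lies outside the rule. The summed level of all 8 genes was 1153, 1175 and 1130 CPM in WT and 1266, 1185 and 1179 CPM in libraries labelled Rag1-/-. The groups did not overlap in this sum, which was 5.03% higher.

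Uqcr10 (chr11:4701968-4704344, minus strand, mm10) encodes one of the smallest subunits of the cytochrome bc1 complex. It was at 126.6, 122.7 and 121.3 CPM in WT and at 141.7, 137.0 and 133.1 CPM in libraries labelled Rag1-/-. The groups were separate, and the lowest of the latter exceeded the highest WT library. The means were 123.5 ± 2.78 and 137.3 ± 4.34 CPM (SD, n = 3 each), with a log2 fold change of 0.15 (SE 0.041, limma-trend adjusted p = 0.334). Uqcr11 (chr10:80402997-80406821, minus strand), another of the smallest subunits, was at 119.4, 118.3 and 118.2 CPM in WT and at 136.7, 131.2 and 123.5 CPM in libraries labelled Rag1-/- (limma-trend adjusted p = 0.369). The WT libraries lay close together, below all 3 of the other group. Uqcrb, which lies near the ubiquinone-binding region, was at 67.0, 67.5 and 59.4 CPM in WT and at 74.7, 74.3 and 69.1 CPM in libraries labelled Rag1-/- (log2 fold change 0.17). WT replicate 3 stood below the rest for Uqcrb, yet the groups did not overlap. Uqcrq, named here after its values were seen, encodes a ubiquinone-binding subunit and was at 161.1 to 162.9 CPM in WT and at 186.7, 171.5 and 169.3 CPM in the other group. The hinge protein gene Uqcrh, also named after its values were seen, was the remaining small subunit, and its groups overlapped (140 ± 5.93 and 151 ± 9.86 CPM). The core protein gene Uqcrc1, chosen in the same way, was at 285, 292 and 281 CPM in WT and at 300.001, 275 and 286 CPM in libraries labelled Rag1-/-, which overlapped fully. The Rieske iron-sulfur protein gene Uqcrfs1, named after its values were seen as well, was at 118 ± 4.89 and 118 ± 6.05 CPM.

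**Figure D2:**
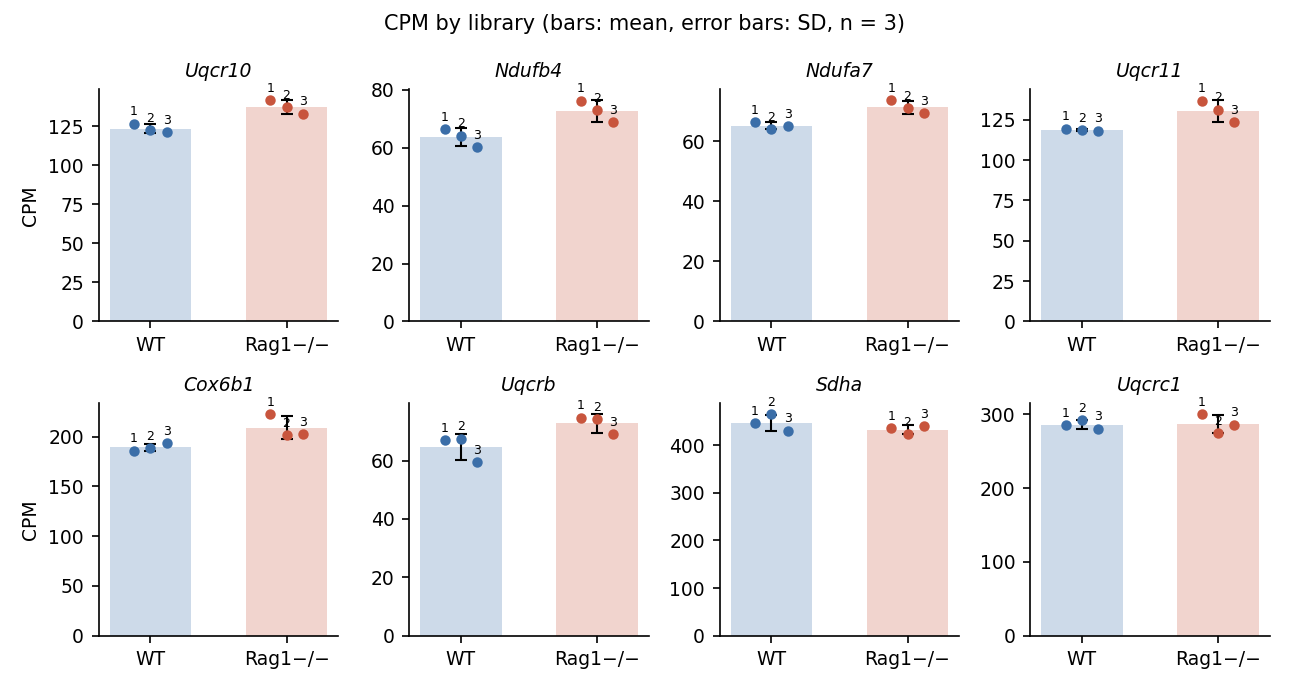
CPM in each of the 6 libraries (points, numbered by replicate) over bars for the group mean, with error bars for the SD (n = 3), on axes that start at 0, for Uqcr10, Ndufb4, Ndufa7, Uqcr11, Cox6b1, Uqcrb, Sdha and Uqcrc1. The groups do not overlap for the first 6 genes and overlap for Sdha and Uqcrc1.

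In complex I, 34 of 37 genes had a log2 fold change above 0, with a median of 0.059 (0.023 without Rag1-/- replicate 1). The 28 accessory subunits had a median of 0.062, with 27 above 0, and 4 of them reached a p of at most 0.05. The 7 nuclear-encoded core subunits, which carry the flavin and iron-sulfur clusters or line the path to ubiquinone, had a median of 0.0045, and 0 reached that p. Ndufb4 (chr16:37647602-37654368, minus strand), an accessory subunit of the membrane arm, was at 66.4, 64.1 and 60.3 CPM in WT and at 76.3, 73.1 and 68.7 CPM in libraries labelled Rag1-/-. All 3 of the latter were above all 3 WT libraries. Its log2 fold change of 0.19 (SE 0.055, limma-trend adjusted p = 0.340) was the largest among the 11 genes. Ndufa7 (chr17:33824572-33838316, plus strand), an accessory subunit of the peripheral arm, was at 66.4, 64.0 and 65.1 CPM in WT and at 73.8, 71.0 and 69.4 CPM in the other group (limma-trend adjusted p = 0.359). These groups were also separate. Ndufa3, an accessory subunit of the membrane arm, was at 136.5, 143.9 and 144.7 CPM in WT and at 167.6, 151.1 and 151.4 CPM in libraries labelled Rag1-/-, the first of which stood well above the others. The fourth gene with a p of at most 0.05, the membrane arm subunit Ndufb9 (named after its values were seen), overlapped between the groups, with WT replicate 3 (169 CPM) just above Rag1-/- replicate 3 (168 CPM).

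Among the core subunits of complex I, named after their values were seen, Ndufs1 of the NADH-oxidising module had a WT level of 117 ± 6.29 CPM and one of 117 ± 1.15 CPM in libraries labelled Rag1-/-. The flavin-carrying Ndufv1 was at 161 ± 3.48 and 158 ± 3.20 CPM. Ndufv2, also of the NADH-oxidising module, had the largest log2 fold change of the 7 (0.11), with overlapping groups. The summed level of complex I was 3704, 3771 and 3662 CPM in WT and 4077, 3791 and 3769 CPM in the other group, and it overlapped between them.

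No difference was detectable in complex II, which consists of 4 subunits. The flavoprotein subunit gene Sdha was at 446, 465 and 431 CPM in WT and at 436, 423 and 440 CPM in libraries labelled Rag1-/- (log2 fold change -0.046, 95% interval -0.15 to 0.055, limma-trend adjusted p = 0.703). The iron-sulfur subunit gene Sdhb was at 111 ± 4.14 and 111 ± 3.28 CPM. The membrane anchors were at 110.4 ± 2.75 and 109 ± 3.00 CPM for Sdhc, and at 78.4 ± 2.34 and 76.6 ± 0.426 CPM for Sdhd. The groups overlapped for all 4 genes. The median log2 fold change was -0.026, and -0.040 to -0.0039 with a library left out. It was 0.019 after median-of-ratios rescaling and 0.0095 after quantile normalization, which moved the median over all genes by a like amount, from -0.051 to -0.0062 and 0.0022. Their summed level was 740, 775 and 725 CPM in WT and 737, 714 and 738 CPM in libraries labelled Rag1-/-.

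In complex IV, the 10 main supernumerary subunits had a median log2 fold change of 0.095. Of these, 9 were above 0, 7 did not overlap between the groups and 2 had a p of at most 0.05. Cox6b1 (chr7:30616974-30626151, minus strand) encodes a subunit on the intermembrane side that joins the monomers of the dimeric enzyme. It was at 186.1, 188.5 and 193.2 CPM in WT and at 222.6, 201.8 and 202.8 CPM in libraries labelled Rag1-/- (189 ± 3.61 and 209 ± 11.7 CPM, limma-trend adjusted p = 0.372). Rag1-/- replicate 1 was the highest, and the other libraries of its group still exceeded WT. Cox6c was at 195, 202 and 188 CPM in WT and at 229, 208 and 205 CPM in the other group, also without overlap. Cox8a, which had the highest level per kilobase, was at 417.9, 395.6 and 421.33 CPM in WT and at 467.3, 449.9 and 421.35 CPM in libraries labelled Rag1-/-, so that the groups only just failed to overlap. Cox6a1 was at 413 to 421 CPM and at 464, 441 and 423 CPM, and the regulatory subunit gene Cox4i1 at 512 to 522 CPM and at 585, 532 and 522 CPM in the same order of groups. In both genes Rag1-/- replicate 1 was furthest from WT. The X-linked Cox7b was at 212, 209 and 192 CPM in WT and at 235, 214.3 and 213.8 CPM in the other group. Cox7a2, by contrast, overlapped, with a log2 fold change of 0.018, as did Cox7a2l, a factor of respiratory supercomplexes, at 0.015. Ndufa4 was at 225, 249 and 213 CPM in WT and at 257, 239 and 237 CPM in libraries labelled Rag1-/-, with overlap. Summed over its 17 genes, complex IV was at 2849, 2844 and 2804 CPM in WT and at 3174, 2956 and 2888 CPM in the other group, without overlap and 6.15% higher.

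Tissue isoforms of complex IV subunits were scarce in brainstem, and their share was not detectably different. Per transcript length, Cox4i2 made up 0.346 ± 0.0239% of Cox4i1 and Cox4i2 in WT and 0.350 ± 0.0390% in libraries labelled Rag1-/-. Among the isoforms of heart and skeletal muscle, Cox6a2 made up 1.72 ± 0.474% and 2.03 ± 0.604% of its pair, Cox7a1 2.83 ± 0.322% and 2.32 ± 0.332%, and Cox8b 0.420 ± 0.109% and 0.321 ± 0.137%. For Cox6b2, known from testis, the share was 1.74 ± 0.166% in WT and 1.28 ± 0.253% in the other group. Ndufa4l2, a hypoxia-inducible relative of Ndufa4, made up 0.767 ± 0.108% and 0.818 ± 0.0398% of that pair. Exact two-sided permutation tests of these 6 shares gave p-values from 0.2 to 0.8, unadjusted, and the design allows no p below 0.1. The testis isoform Cox7b2 was at 0.0863 to 0.189 CPM in WT and at 0.142 to 0.289 CPM in the other group, close to the 0.0646 to 0.0950 CPM that 3 reads are worth. Skeletal muscle markers summed to 123 to 165 CPM in WT and to 120 to 137 CPM in the other group, but most of this was Pvalb (104 to 138 and 101 to 120 CPM), which neurons also express. The next highest of the list, Myh7, had means of 8.69 and 8.09 CPM, and both were named after their values were seen. The 4 testis markers summed to 1.99 to 3.10 and 2.48 to 2.95 CPM.

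In complex V the differences were small, and most of them were above 0. Of its 16 genes, 14 were above 0 (median 0.058, or 0.021 without Rag1-/- replicate 1) and 5 did not overlap between the groups. Atp5h, subunit d of the peripheral stalk that holds the catalytic head still, was the gene with a p of at most 0.05. It was at 104.8, 107.9 and 105.9 CPM in WT and at 122.4, 112.8 and 110.6 CPM in libraries labelled Rag1-/- (log2 fold change 0.12). Rag1-/- replicate 1 was again the highest. The 3 small subunits of the membrane part had log2 fold changes of 0.086 to 0.093, and 2 of them did not overlap. Among these, Atp5k (subunit e, needed to form dimers of the enzyme) was at 144, 149 and 154 CPM in WT and at 169, 154.2 and 154.6 CPM in the other group. Of the F1 head and rotor, Atp5c1, the gamma subunit, was at 171, 173 and 165 CPM in WT and at 184, 176 and 178 CPM in libraries labelled Rag1-/-, which were all higher. The catalytic beta subunit Atp5b was at 1142, 1173 and 1165 CPM and at 1229, 1128 and 1176 CPM, with overlap, and the alpha subunit Atp5a1, named after its values were seen, at 834 ± 16.1 and 823 ± 28.5 CPM.

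The c ring of complex V, through which protons pass, is encoded by 3 genes that give the same mature protein. Atp5g1 had a log2 fold change of 0.064, Atp5g2 of 0.0074 and Atp5g3 of 0.024, and the groups overlapped for each. Atp5s carries a complex V name but is not a subunit of the enzyme. It ranged from 8.65 to 9.71 CPM in WT and from 8.88 to 9.36 CPM in libraries labelled Rag1-/-. The summed level of the 16 genes was 3958, 4062 and 3973 CPM in WT and 4258, 3972 and 4037 CPM in the other group.

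The contrast between core and accessory subunits was then described across complexes. The 17 catalytic or core subunits of complexes I, II, III and V had a median log2 fold change of 0.0011, with 9 above 0. All 4 complex II genes counted as core. Of the F1 genes of complex V, Atp5a1, Atp5b and Atp5c1 were taken. Atp5d (0.051) and Atp5e (0.086), named after their values were seen, were left out. The 43 accessory or supernumerary subunits of complexes I, III and IV had a median of 0.078, with 41 above 0. They held 10 of the 11 genes with a p of at most 0.05. This set left out the 6 tissue isoforms of complex IV, which had a median of -0.089 with 3 above 0. Ndufa4, Ndufa4l2, Cox7a2l and the small subunits of complex V were not in it either. Within each library, relative to the WT mean, the median of the accessory subunits minus that of the core subunits was 0.016, -0.037 and 0.020 (log2) in WT. It was 0.11, 0.10 and 0.021 in libraries labelled Rag1-/-, all higher than WT although replicate 3 exceeded it only slightly. For the small against the core subunits of complex III it was 0.015, -0.052 and 0.034 in WT and 0.14, 0.20 and 0.065 in the other group. In complex I alone it was 0.0094, -0.034 and 0.024 in WT and 0.094, 0.085 and 0.0076 in the other group, so that the groups overlapped there.

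**Figure D3:**
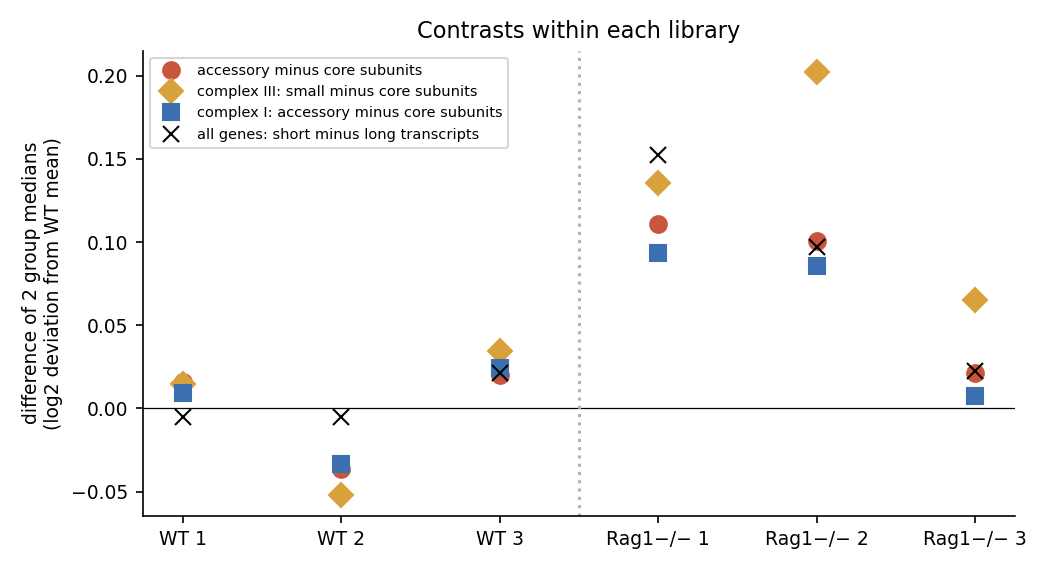
Difference of 2 group medians within each of the 6 libraries (log2 deviation from the WT mean), for accessory minus core subunits, for small minus core subunits of complex III, for accessory minus core subunits of complex I, and for transcripts under 700 bases minus those of 1200 bases or more over all genes. Rag1-/- replicates 1 and 2 lie above WT in each of the 4 contrasts. Replicate 3 lies close to WT replicate 3, except in complex III, and within the WT range in complex I.

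Core and accessory subunits also differ in transcript length. The accessory subunits had a median transcript of 645 bases and the core subunits of 1623 bases, and 10 of the 11 genes with a p of at most 0.05 had transcripts under 1000 bases, as did 54 of the 82. Across the 82 genes, the log2 fold change was correlated with transcript length at a Spearman rho of -0.45 and with coding length at -0.53. With the Xist term in the fit, the rho with transcript length was -0.24. These are descriptions across genes measured in the same 6 libraries. Over all genes with a length the values were -0.21 (n = 16444) and -0.24 (n = 15581). The 35 members with transcripts under 700 bases had a median of 0.093, and the 484 tested genes of that length a median of 0.035. At 1200 bases or more, the medians were 0.0044 for 22 members and -0.057 for all genes of that length.

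The same comparison can be made inside each library. For the members, the median of transcripts under 700 bases minus that of 1200 bases or more was 0.0033, -0.023 and 0.023 in WT and 0.13, 0.094 and 0.039 in libraries labelled Rag1-/-. For all genes it was -0.0051, -0.0053 and 0.021 in WT and 0.15, 0.097 and 0.023 in the other group. The difference over all genes was thus largest in the libraries labelled Rag1-/- that were highest for the small subunits, replicates 1 and 2, while replicate 3 was close to WT replicate 3. The median of all genes under 700 bases by itself was -0.0044, -0.010 and 0.028 in WT and 0.087, 0.050 and -0.026 in the other group, with replicate 3 below WT, whereas members of that length were at 0.18, 0.065 and 0.037 in the latter. In each length class with both kinds of genes, the median of the members was above that of the other genes. From 500 to under 700 bases it was 0.097 for 25 members against 0.022. From 2000 to under 3000 bases it was 0.0011 for 5 members against -0.043. The class from 3000 to under 5000 bases held 1 member. The other genes were not matched for level, and the part of transcript length in the result was not tested.

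**Figure D4:**
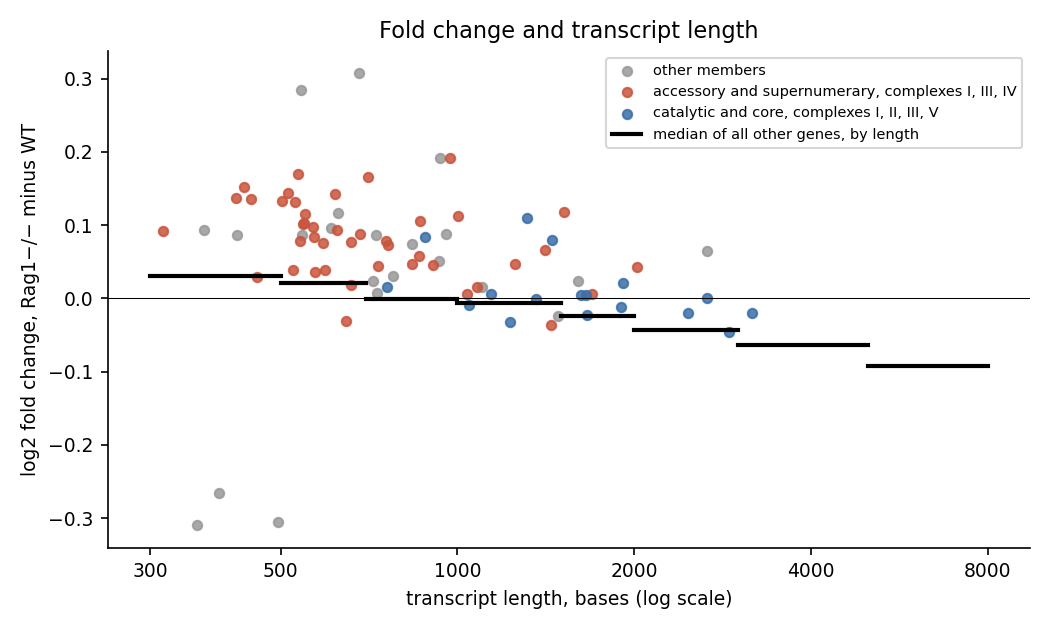
Log2 fold change (labelled Rag1-/- minus WT) against transcript length in bases (log axis), with each of the 82 genes as a point (red for accessory, blue for core, grey for other members) and black bars at the median of all other genes by length class. Most members with short transcripts lie above the bars, the scarce tissue isoforms reach from -0.31 to 0.31, and the bars run from 0.030 under 500 bases to -0.092 at 5000 bases or more.

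Single libraries contributed unequally. Relative to the WT mean, the median of the 82 genes was -0.0038, 0.026 and -0.025 (log2) in WT and 0.13, 0.042 and 0.019 in libraries labelled Rag1-/-. Over all genes it was 0.00053, -0.0049 and 0.0068 in WT and -0.055, -0.041 and -0.046 in the other group. Rag1-/- replicate 1 was the highest library for 62 of the 82 genes, and WT replicate 3 the lowest for 32. By the median, WT replicate 2 exceeded Rag1-/- replicate 3. Minus the median of all genes in the same library, the 82 genes were at -0.0044, 0.031 and -0.032 in WT and at 0.19, 0.083 and 0.065 in the other group, without overlap. The summed level of the 82 genes was 12404, 12627 and 12294 CPM in WT and 13513, 12619 and 12612 CPM in the other group (12442 ± 170 and 12914 ± 518 CPM), and overlapped.

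**Figure D5:**
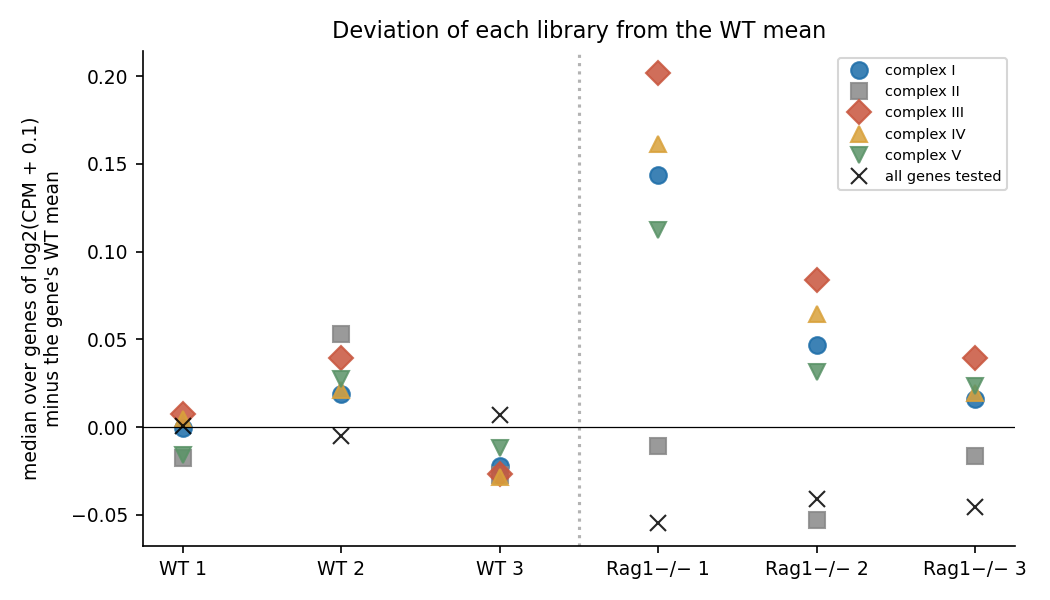
Median deviation from the WT mean (log2(CPM + 0.1)) in each of the 6 libraries, with a symbol for the members of each complex and a cross for all genes tested. Complexes I, III, IV and V are highest in Rag1-/- replicate 1 (0.20 for complex III), and all genes tested lie between -0.055 and 0.0068.

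Genes around the respiratory chain were counted in the same way. The electron carriers outside the rule were at 191 and 193 CPM (means of WT and of the libraries labelled Rag1-/-) for Cyc1, the heme subunit cytochrome c1 of complex III, and at 136 ± 21.4 and 145 ± 6.10 CPM for Cycs, cytochrome c. Ndufab1, the acyl carrier protein of complex I, was at 48.5 and 48.9 CPM. Of 47 assembly factors, the proteins that build the complexes, the median log2 fold change was 0.0021. At a p of at most 0.05, 1 was higher and 2 were lower, beside 2.27% and 9.29% of all genes, shares near or above those of the list. These were Ndufaf2 of complex I (25.1 ± 1.21 and 28.2 ± 2.13 CPM) and the copper chaperones of complex IV Sco1 (8.004 ± 0.557 and 6.51 ± 0.113 CPM) and Sco2 (9.45 and 7.71 CPM), named after their values were seen. A further list held 17 genes of the tricarboxylic acid cycle, which supplies the electrons, and of the pyruvate dehydrogenase complex. Of these, 0 passed a p of at most 0.05 in either direction (0 at an adjusted p under 0.05), with a median of -0.015.

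The regulators of mitochondrial biogenesis had a median log2 fold change of -0.095 over 18 genes, and 2 of them had a p of at most 0.05, both lower, where 9.29% of all genes were lower at that p and the median over all genes was -0.051. Tfam, which packages mitochondrial DNA and takes part in starting its transcription, had a mean of 30.2 ± 1.33 CPM in WT against 27.2 ± 0.122 CPM in libraries labelled Rag1-/-. Nrf1, which encodes the NRF-1 named above, was at 12.3 ± 1.35 and 10.4 ± 0.708 CPM. The coactivator gene Ppargc1a was at 51.1 and 49.8 CPM. Gabpa, a subunit gene of NRF-2, was at 17.1 ± 0.702 and 15.6 ± 0.608 CPM, and the nuclear receptor gene Esrra at 59.1 and 58.2 CPM. Summed, the 18 regulators were at 425 ± 6.68 and 403 ± 11.4 CPM without overlap, the lower values in libraries labelled Rag1-/-. The 77 mitochondrial ribosomal protein genes had a median of 0.032, with 56 above 0, and 1 higher and 0 lower at a p of at most 0.05. The 86 cytosolic ribosomal protein genes had a median of 0.035, with 8 higher and 2 lower, beside 2.27% and 9.29% of all genes.

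Markers of brain cell types were set beside these values. The 12 oligodendrocyte markers had a median log2 fold change of 0.24, and 10 had a p of at most 0.05, all higher, beside 2.27% of all genes. Their sum was 21228 to 24548 CPM in WT and 27260 to 28470 CPM in libraries labelled Rag1-/-, 22.01% higher. Astrocyte markers (11 genes) summed to 4587 to 4896 and 4925 to 5116 CPM, also without overlap, with a median log2 fold change of 0.037 and 1 gene at a p of at most 0.05. The median deviation of these markers, by contrast, was lowest in Rag1-/- replicate 3 (-0.026), so that the groups overlapped by that measure. Neuron markers (16 genes) had a median of -0.0086 and 0 genes at that p in either direction. The median was -0.061 for microglia, -0.018 for mural cells and -0.011 for endothelial cells, whose summed levels overlapped between the groups. Choroid plexus markers, of a tissue rich in mitochondria, summed to 982, 1236 and 489 CPM in WT and to 556, 635 and 591 CPM in the other group, most of it Ttr (named after its values were seen). All 8 had log2 fold changes below 0 (median -0.42), with 2 at a p of at most 0.05, Clic6 and Otx2, named after their values were seen. Red blood cell markers summed to 647 to 1883 and 897 to 1442 CPM. Of the quality lists, the 9 nuclear long noncoding RNAs had a median of -0.12 and the 11 immediate early genes of -0.19, each with 1 gene lower at a p of at most 0.05, near the 9.29% of all genes. The part of oligodendrocytes, of the other cell types and of RNA quality in the levels of the 82 genes was not tested.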

How the data were processed

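The authors sequenced total RNA from 6 brainstems on an Illumina HiSeq, demultiplexed with bcl2fastq, aligned the reads to mm10 with STAR 2.5.3a, counted them against RefSeq transcripts in Partek Flow and deposited CPM values per gene, with 0.0001 CPM as the lowest value. Groups were taken from the labels. Columns of the table that belonged to other samples numbered 0. The smallest steps between low CPM values gave the depth estimates, but only 85.2 to 86.7% of low values were whole reads within 0.1 read, so no count test was run.

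From the deposited CPM, log2(CPM + 0.1) was tested with limma-trend (limma 3.58.1, R 4.3.3) on the 16762 genes whose mean reached 0.1 CPM, with Benjamini-Hochberg adjustment. The test was tried on simulated data in which each gene and library had independent noise. That trial held no shift shared by the genes of a library, so it cannot speak to the counts of members. Fold changes on this scale understate the change of genes near 0.1 CPM. Single shares were compared by exact two-sided permutation over samples. A limma-trend p-value sets the difference between the groups against the spread among the 3 animals of each. That spread is moderated by a trend fitted over all genes tested. The main fit has no term for sex. Depth intervals cover counting error only.

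Named genes were the 3 members of each complex with the smallest p, the 2 with the highest CPM per kb, complex II, the isoform groups and Atp5s, with Rag1, Xist, Cyc1, Cycs, Ndufab1, Tfam, Nrf1, Ppargc1a, Gabpa and Esrra beside them. Others are stated as named after their values were seen. The members and lists were chosen with earlier results of these data known. Transcript lengths were the median over RefSeq-linked protein-coding transcripts of GENCODE for GRCm38, and promoters were those of RefSeq. Mitochondrially encoded genes and Cox8c were not analysed here. Alternatives were pseudocounts of 1 and 0.01, no filter or a mean of 1 CPM, 2 rescalings, limma without trend, a replicate block, a term for Xist over 100 CPM and leaving out each library.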

Additional observations from a re-analysis of the deposited data

How the results depend on the processing

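No member had an adjusted p under 0.05 by limma-trend under any alternative run (unadjusted p of at most 0.05 for 11 members with all libraries and the settings of the report). The number of members higher at a p of at most 0.05 was 32 after median-of-ratios rescaling, 28 after quantile normalization and 4 without the trend (2.12% of all genes higher), and it ran from 2 to 18 when each library was left out. Members higher in every library labelled Rag1-/- numbered 39 after median-of-ratios rescaling, 35 after quantile normalization and 20 to 33 with a library left out (33 without Rag1-/- replicate 3), where the share of all genes went from 3.98% to 8.42%, 8.71% and 6.01 to 8.09%. Members lower at a p of at most 0.05 numbered 0 to 1 with a library left out (Cox6b2 without WT replicate 1 or Rag1-/- replicate 2, Cox7a1 without Rag1-/- replicate 1), and members lower in every library labelled Rag1-/- numbered 0 to 2 (Cox6b2, Cox7a1, Ndufa9, Sdha, Atp5a1 and Sdhd in 1 or more of these), named after their values were seen. The median log2 fold change was 0.10 for complex V after median-of-ratios rescaling, and for complex II 0.019 after it and 0.0095 after quantile normalization. Over the alternatives that left no library out, the median ran from 0.062 to 0.11 for all members and from 0.11 to 0.16 for complex III. With a library left out it ran from 0.026 to 0.086 for all members, 0.023 to 0.087 for complex I, -0.040 to -0.0039 for II, 0.063 to 0.14 for III, 0.049 to 0.11 for IV and 0.021 to 0.077 for V, lowest without Rag1-/- replicate 1 except in complex II. Both rescalings raised the median over all genes, from -0.051 to -0.0062 and 0.0022, and single genes close below 0 moved with it. The sign of single genes turned for Atp5s (0.020 with median-of-ratios rescaling, 0.031 with quantile normalization, 0.063 with the Xist term), Sdhc (0.026, 0.012 and 0.010), Sdhd (0.013 and 0.0071 with the rescalings) and Sdha (0.0068 with the Xist term). With a library left out, the log2 fold change ran over 0 for genes near 0: -0.015 to 0.036 for Sdhb, -0.037 to 0.0021 for Sdhc, -0.069 to 0.014 for Atp5s, -0.011 to 0.051 for Atp5b, -0.0082 to 0.037 for Atp5g2, -0.014 to 0.057 for Atp5g3, -0.018 to 0.044 for Cox7a2. For Cox8b it ran from -0.53 to 0.035. Of the 314 values of named genes under the other alternatives, 305 kept their direction, and of 210 with a library left out, 195 did. The cause of these shifts was not tested beyond what each setting changes. Cox7b2, near the value of 3 reads, dropped out at a mean of 1 CPM.

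With the replicate block, 6 members were higher at a p of at most 0.05, where 1.52% of all genes were. The labels tie the numbers to no shared litter, batch or day, and the deviations of same-numbered libraries from their group means correlated at 0.093, -0.22 and -0.018. The numbers were therefore not taken to pair the samples.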
